A study of Mus musculus with 8 samples.

Results

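Distal SOX9 tiles were 1-kb stretches of the mouse genome that carried high SOX9 CUT&Tag coverage in every SOX9 library and lay away from annotated transcript starts. Chromosomes 1 to 19 were divided into tiles from position 0, and the level of a tile was its summed coverage divided by the mean tile of the same library. A tile was taken when its level was 5 or more in each of the 4 SOX9 libraries and its centre was more than 2 kb from every annotated transcript start. The rule took 7571 of 2462755 tiles (0.307%), which was 0.346% of the 2188492 distal tiles. Of the 20227 tiles at a level of 5 or more in all 4 libraries, 12656 lay within 2 kb of a start and were left out, so the distal tiles were 37.4% of the high tiles. Repeats and low-complexity sequence covered at most 50% of the bases of 7003 members (92.5%) and more than that of the other 568.

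The study mapped SOX9 in the spinal cord of adult wild-type C57BL/6 mice, either uninjured or 1 day after a contusion of the thoracic cord (1 d.p.i.). Each condition had 1 male (M) and 1 female (F) sample, from frozen tissue around the injury or at the matching level of uninjured cords, and each sample gave 1 SOX9 library and 1 secondary-only control. All animals were wild type and no transgene or reporter was used. For sequencing experiments the paper gives a range of animals pooled per condition, with females and males in equal numbers. The number behind each of these libraries is not given in the sources used here. The sample labels give a sort of the nuclei on the DNA stain 7AAD and name no other marker. The study's methods refer for this sort to one in which NEUN or SOX10 antibodies were used as well, so which cell types the gate kept is not settled. Fewer nuclei of a type cannot be told apart from less SOX9 per nucleus. In CUT&Tag an antibody tethers a transposase to chromatin, and fragments accumulate where the protein sits. The controls received the secondary antibody without the SOX9 antibody.

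SOX9 is an HMG-box transcription factor of the SOXE group, with its close relatives SOX8 and SOX10, and recognises short words such as ACAATG in the minor groove of DNA. In the developing spinal cord SOX9 acts in the switch from making neurons to making glia, and in the adult it is kept in astrocytes and ependymal cells. SOX10 takes over in the oligodendrocyte lineage, where it activates myelin genes, and the SOXE proteins share their DNA-binding word.

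Depth differed between the libraries and set how a level of 5 was reached. The SOX9 libraries held 1824332 (uninjured M), 7068156 (uninjured F), 2463775 (1 d.p.i. M) and 2317198 (1 d.p.i. F) fragments on chromosomes 1 to 19, counted as rises of the coverage. A level of 5 was 3.70, 14.4, 5.00 and 4.70 fragments of mean length in these libraries, and the median member held 6, 28, 10 and 8 fragments. In the shallowest SOX9 library a member could thus rest on few fragments. The controls held 22300 (uninjured M), 45472 (uninjured F), 51460 (1 d.p.i. M) and 10664 (1 d.p.i. F) fragments, so that a single 200-bp fragment was already a level of 103, 52.7, 44.6 and 193. A control level of a single tile was therefore mostly 0 or large, with smaller values where a fragment only reached into the tile.

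Control libraries shared fragments with the SOX9 libraries. Of the control fragments that stood alone within members, 92.2% (uninjured M), 87.9% (uninjured F), 89.5% (1 d.p.i. M) and 90.4% (1 d.p.i. F) had both their start and their end at the base positions of starts and ends in a SOX9 library. The same shares over all tiles were 93.7%, 82.7%, 86.5% and 91.4%, and shifting the fragments of members by 10 bp left 1.90% to 2.89%. Sharing among the controls was 0.548% to 1.93% at the members, and a SOX9 library's lone fragments there matched another SOX9 library in 2.3% to 8.34%. Fragments were matched by their end positions after an earlier way, in which starts and ends were joined in order, had given 29.1%, 25.9%, 27.2% and 27.7% at the members and 67%, 54.9%, 61.9% and 62.0% over all tiles. The value thus depended on the way of matching, more at the members than over all tiles, and where the shared fragments came from was not tested. Control levels of the tiles described below are given as a measurement that is not independent of the SOX9 levels.

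The members took 3.84% (uninjured M), 4.41% (uninjured F), 4.63% (1 d.p.i. M) and 3.94% (1 d.p.i. F) of the SOX9 coverage. The controls placed 4.02% (uninjured M), 4.22% (uninjured F), 4.73% (1 d.p.i. M) and 4.06% (1 d.p.i. F) of their coverage in the same tiles, close to the SOX9 libraries. Among lone control fragments whose ends no SOX9 library held, the share in members was 4.58% (95% Wilson interval 3.59% to 5.82%), 2.27% (1.94% to 2.66%), 2.46% (2.1% to 2.89%) and 4.5% (3.32% to 6.07%). For those with shared ends it was 3.63%, 3.46%, 3.29% and 3.95%. Control fragments without a SOX9 counterpart therefore also fell in members, which were 0.307% of all tiles. Among the members, 3465 (45.8%) had coverage in at least 1 control, against 4.63% of distal tiles, and 4106 (54.2%) had none in any control. Coverage in all 4 controls was found in 31 members, and 10 members held 17.3% of the 5639 control fragments in members. Intervals cover counting error alone.

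The members were chosen by their SOX9 levels, which are therefore given as a description. Median levels were 8.99 in uninjured M, 10.6 in uninjured F, 10.6 in 1 d.p.i. M and 9.15 in 1 d.p.i. F. The lowest level of a member over the 4 libraries had a median of 6.72 and an upper quartile of 9.1, and reached 298. It was 10 or more in 1531 members, 20 or more in 346 and 50 or more in 81, so 79.8% of members stood below 10 while a small group stood far above the threshold. The highest library was a median of 1.88 times the lowest in a member. The lowest level was that of uninjured M in 35.6% of members and that of 1 d.p.i. F in 30.4%. Across the 7571 members the levels of library pairs correlated with Pearson r from 0.647 to 0.755, as a description of tiles that share base composition and repeats.

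At the threshold, the lowest members and the highest non-members lay close together. The lowest level over the SOX9 libraries was 5.0006 in the lowest member and 4.9992 in the highest non-member. The member nearest to it, an intergenic tile at chr15:88852001-88853000 near Pim3, had levels of 5.51 (uninjured M), 5.00 (uninjured F), 8.02 (1 d.p.i. M) and 6.72 (1 d.p.i. F). A tile in an intron of Gng7 (chr10:81009001-81010000) had 6.02, 5.00, 12.8 and 6.33 in the same order. On the other side, a tile in an intron of Kcnh6 (chr11:106032001-106033000) had 17.4, 9.42, 4.999 and 5.46, and a tile in an intron of Farp1 (chr14:121273001-121274000) had 6.22, 5.99, 4.999 and 7.64. None of these tiles had control coverage except the one near Pim3, with 51.7 in uninjured F. Membership of the lowest members and the highest non-members turned on a single library. Over the distal genome, 76176 tiles were at 5 or more in exactly 1 SOX9 library, 20962 in 2, 10837 in 3 and 7571 in 4. Tiles high in 3 libraries were also high in the remaining one in 64.1% (uninjured M), 84.5% (uninjured F), 79.9% (1 d.p.i. M) and 69.7% (1 d.p.i. F) of cases. Over all distal tiles the same share was 2.36%, 1.72%, 2.17% and 2.01%. Without uninjured M, the shallowest SOX9 library, the rule would have taken 11819 tiles.

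Each member was assigned to the coding gene with the nearest start, and members lay nearest to 2918 such genes. The lists of marker genes took 269 of the 7571 members, and the oligodendrocyte lineage took the most of them. Its genes were nearest to 157 members (2.07% of members), against 0.249% of distal tiles, and 21 of its 29 genes on these chromosomes had a member. Counting each run of adjacent members as 1 left 86 runs. Members and distal tiles differ in base composition, and with distal tiles weighted by GC class 29.1 members would have been counted near these genes. The list included regulators and myelin genes. Qk, which encodes an RNA-binding protein of myelinating glia, had 41 members, Mbp (myelin basic protein) 30, Sox10 14, Myrf (the myelin regulatory factor) 11, Nkx6-2 8 and Mobp 7. Cnp had 6, Olig1, Sox8 and Cspg4 had 5 each, and Olig2 and Mag had 3. Pdgfra, the receptor that marks oligodendrocyte precursors, had none among 225 distal tiles. Other genes of the list had none as well, among them Enpp6 (227 distal tiles), St18 (499), Sox6 (777) and Sox5 (1035). With members at 0.346% of all distal tiles, few or none would be counted among 225.

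The 3 highest members nearest to Qk lay 126121 to 165121 bp from its start. The highest, chr17:10451001-10452000, had SOX9 levels of 72.4 (uninjured M), 121 (uninjured F), 69.0 (1 d.p.i. M) and 57.7 (1 d.p.i. F), with control levels of 53.7, 0, 78.3 and 113 in the same order. It was highest in uninjured F, and both 1 d.p.i. libraries were below both uninjured ones. The means differed by less than the SD of the uninjured pair (mean 96.6 ± 34.1 against 63.3 ± 7.99, SD, n = 2 each). The tile at chr17:10445001-10446000 had 82.6, 50.4, 55.1 and 74.0 with no control coverage, and 62.1% of its 31-mers (words of 31 bases) were unique in the genome. The next, chr17:10484001-10485000, had 42.4, 75.4, 59.5 and 40.4, with control coverage in 1 d.p.i. M alone, at 95.9. All 3 stood far above the median member in every SOX9 library.

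Near Cldn11, which encodes the claudin of myelin tight junctions, the intergenic tile chr3:31166001-31167000 had levels of 38.1 (uninjured M), 64.1 (uninjured F), 45.7 (1 d.p.i. M) and 50.4 (1 d.p.i. F), with controls at 0, 114, 152 and 0. The following tiles were chosen after their values were seen, as the highest member of their gene. In an intron of Gm10863 beside Sox10, the SOXE factor of oligodendrocytes, chr15:79193001-79194000 had 24.2, 45.2, 29.8 and 23.8, with controls at 0, 84.7, 8.25 and 0. Levels were highest in uninjured F at both Cldn11 and Sox10. The tile near Olig1, a lineage regulator (chr16:91305001-91306000), had 36.3, 57.6, 51.2 and 28.8, with a control level of 1.78 in 1 d.p.i. M. Within Myrf, the intronic tile chr19:10232001-10233000 had 17.5, 29.4, 33.1 and 20.2, with a control level of 80.5 in 1 d.p.i. M. In an intron of Tcf7l2, a transcription factor of the Wnt pathway, chr19:55788001-55789000 had 7.75, 9.57, 7.92 and 5.24, with no control coverage. The 200 bp around the summit of summed SOX9 coverage are shown for 4 of them, on the plus strand of GRCm38, with SOX words (ACAATG and also ACAAAG, on either strand) in capitals, as examples of summits with the word. They were picked for it, the Myrf summit held it too, and the summit of the highest Qk tile held none of the 12 motifs searched. The Cldn11 summit held 2 words in the same orientation, and the Tcf7l2 summit held 3, of which a pair faced each other.
Cldn11 (chr3:31166348-31166547): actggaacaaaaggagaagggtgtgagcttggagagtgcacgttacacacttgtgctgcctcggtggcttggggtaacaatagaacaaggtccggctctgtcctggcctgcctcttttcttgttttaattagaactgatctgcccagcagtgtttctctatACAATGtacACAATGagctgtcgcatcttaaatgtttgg
Olig1 (chr16:91305622-91305821): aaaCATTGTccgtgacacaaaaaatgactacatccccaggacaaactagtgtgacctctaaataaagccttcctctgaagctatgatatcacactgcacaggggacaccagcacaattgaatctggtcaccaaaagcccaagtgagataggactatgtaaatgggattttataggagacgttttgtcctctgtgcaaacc
Sox10 (chr15:79192924-79193123): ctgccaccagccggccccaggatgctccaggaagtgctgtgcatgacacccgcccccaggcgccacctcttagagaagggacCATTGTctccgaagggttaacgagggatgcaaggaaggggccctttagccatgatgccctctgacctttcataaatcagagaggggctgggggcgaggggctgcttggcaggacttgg
Tcf7l2 (chr19:55788396-55788595): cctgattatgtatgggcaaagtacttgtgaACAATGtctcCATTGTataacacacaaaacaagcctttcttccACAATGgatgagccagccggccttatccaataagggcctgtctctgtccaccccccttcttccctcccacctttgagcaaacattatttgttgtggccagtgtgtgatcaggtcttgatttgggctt

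Astrocyte genes were nearest to 54 members (0.713%), against 0.312% of distal tiles, and 19 of 36 had a member. Nfix, a nuclear factor I gene active in astrocyte maturation, held 17 of them. Without Nfix the ratio of the share of members to that of distal tiles fell from 2.29 to 1.58. Notch1 had 6 among 65 distal tiles, Atp1b2 3 among 13 and Glul 3 among 133. Sox9 itself had 4 among 1203 and Sox2 3 among 762, close to the 0.346% of all distal tiles. Gfap, Aqp4, Slc1a2 and Gja1 had none among 12, 265, 195 and 596 distal tiles. At that share few or no members fall among so few tiles. The highest tile, in an intron of Nfix (chr8:84794001-84795000), had levels of 20.1 (uninjured M), 35.6 (uninjured F), 44.2 (1 d.p.i. M) and 33.9 (1 d.p.i. F). The intergenic tile near Atp1b2, an astrocyte sodium pump subunit (chr11:69592001-69593000), had 23.4, 22.1, 27.7 and 19.6. Both conditions overlapped in these tiles. A tile near Glul, the glutamine synthetase gene (chr1:153997001-153998000), had 14.8, 44.7, 25.4 and 31.5, and a tile near Fgfr3 (chr5:33705001-33706000) had 11.7, 16.9, 16.9 and 11.8. The highest tile near Sox9, chr11:112811001-112812000, had 8.98, 6.81, 19.7 and 8.39 and was chosen after its value was seen. Control coverage was present at each of these tiles. It was 41.7 in uninjured F at Nfix, 226 in 1 d.p.i. F at Glul and 100.2 in uninjured M at Fgfr3, with 0 in the other controls. At Atp1b2 the controls were 72.8, 24.3, 134 and 0, and at Sox9 0, 110.2, 55.5 and 0. The Nfix and Atp1b2 summits held none of the SOX words, while the Glul, Fgfr3 and Sox9 summits held the word.
Nfix (chr8:84794519-84794718): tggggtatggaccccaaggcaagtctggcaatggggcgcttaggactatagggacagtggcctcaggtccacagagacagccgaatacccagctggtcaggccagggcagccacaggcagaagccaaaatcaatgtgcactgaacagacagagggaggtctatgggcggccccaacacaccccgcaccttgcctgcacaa

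Ependymal genes were nearest to 8 members (0.106%), close to their 0.105% of distal tiles. Foxj1, the master regulator of motile cilia, had 5 of them, Rfx2 had 2 and Cfap126 had 1. The tile at chr11:116330001-116331000 near Foxj1 had levels of 13.7 (uninjured M), 15.6 (uninjured F), 15.0 (1 d.p.i. M) and 15.8 (1 d.p.i. F), and a tile in an intron of Foxj1 (chr11:116332001-116333000) had 13.4, 26.8, 23.8 and 22.3. Levels near Foxj1 were thus alike in the 1 d.p.i. pair and in uninjured F. Within an intron of Rfx2, which encodes an X-box-binding ciliary regulator, chr17:56810001-56811000 had 10.3, 8.25, 11 and 7.73. The tile near Cfap126 (chr1:171102001-171103000) had 8.72, 11.6, 23.2 and 20.0, so both 1 d.p.i. libraries were above both uninjured ones, and it also held tRNA genes. Control coverage was found at the Foxj1 tiles alone, in 1 d.p.i. M at 39.7 and 52.4 in the order given. Without Foxj1 the list's ratio to distal tiles was 0.380. The Foxj1 and Rfx2 summits are shown with SOX words and the AP-1 word TGACTCA in capitals, since the Rfx2 summit held a SOX word, an AP-1 word and an X-box within 200 bp.
Foxj1 (chr11:116330257-116330456): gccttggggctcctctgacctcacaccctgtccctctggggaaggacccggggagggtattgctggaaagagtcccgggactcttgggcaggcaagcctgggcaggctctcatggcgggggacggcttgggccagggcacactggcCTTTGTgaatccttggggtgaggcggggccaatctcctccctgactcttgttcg
Rfx2 (chr17:56810405-56810604): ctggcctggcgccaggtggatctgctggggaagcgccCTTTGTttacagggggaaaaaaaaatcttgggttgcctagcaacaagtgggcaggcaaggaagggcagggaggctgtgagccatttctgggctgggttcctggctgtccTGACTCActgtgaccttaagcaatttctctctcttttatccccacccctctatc

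Genes of the AP-1 family and the injury response were nearest to 22 members (0.291%), against 0.116% of distal tiles, and 9 of 21 had a member. The ratio of these shares fell from 2.5 to 1.54 with distal tiles weighted by GC class, which gave 14.3 members. Fos had 7 members, Fosb 3, Egr1 3, and Jund, Cebpb and Socs3 2 each. The tile near Fos, chr12:85455001-85456000, had levels of 46.7 (uninjured M), 78.4 (uninjured F), 82.7 (1 d.p.i. M) and 53.5 (1 d.p.i. F), and was high in the uninjured cord as well. The tile near Fosb (chr7:19319001-19320000) had 21.2, 28.2, 26.0 and 16. Another tile near Fos (chr12:85486001-85487000) had 11.4, 26.7, 13.8 and 16.6. The conditions overlapped in all 3. Controls were at 0 in every library for Fosb, at 84.8 in 1 d.p.i. M for the first Fos tile, and at 25.6 in uninjured F and 4.01 in 1 d.p.i. M for the other. The summit near Fos held neither a SOX nor an AP-1 word and is shown because it was among the 10 highest members with mostly unique 31-mers.
Fos (chr12:85455277-85455476): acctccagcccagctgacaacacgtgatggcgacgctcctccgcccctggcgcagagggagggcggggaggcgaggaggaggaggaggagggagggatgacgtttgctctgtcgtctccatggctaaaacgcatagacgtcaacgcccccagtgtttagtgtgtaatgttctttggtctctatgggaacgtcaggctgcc

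Neuronal genes were nearest to 25 members (0.33%), below their 0.448% of distal tiles, with 9 at Rbfox3 and 5 at Lmx1b. The highest, in an intron of Rbfox1 (chr16:7027001-7028000), had levels of 59.0 (uninjured M), 65.8 (uninjured F), 64.6 (1 d.p.i. M) and 35.1 (1 d.p.i. F). Only 35.4% of its 31-mers were unique. The neighbouring tile (chr16:7026001-7027000) had 10.6, 15.7, 12.2 and 10.9, was 4.6% repeats and had 84.5% unique 31-mers. Tiles near Stmn2 (chr3:8245001-8246000) and in an intron of Rbfox3 (chr11:118801001-118802000) were 69.3% and 47.7% repeats. Repeated sequence thus stood under 3 of the 4 highest neuronal tiles. Of these 4, the Stmn2 and Rbfox3 tiles had control coverage, both in uninjured F, at 52.5 and 76.0. Microglial genes were nearest to 3 members (0.0396%, against 0.0853% of distal tiles), among them tiles near Sall1 and Cx3cr1 with lowest levels of 7.87 and 5.08. Endothelial and mural genes were nearest to no member, with 0.126% of distal tiles. The lists cover 7 groups, and 7302 members lay nearest to genes on none of them.

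Genes with many members were picked after the counts were seen. Gse1, a chromatin-associated gene, had 87 members among 335 distal tiles, and Smad7, an inhibitor of TGF-beta signalling, had 35 among 318. Gnao1 had 34, Itpk1 32, Cxxc5 28, and Agap1 and Nfasc, the gene of the axon-anchoring neurofascin, 26 each. The highest tile in Gse1, intronic, at chr8:120323001-120324000, had levels of 34.6 (uninjured M), 67.7 (uninjured F), 60.0 (1 d.p.i. M) and 28.5 (1 d.p.i. F). An intronic tile of Nfasc (chr1:132640001-132641000) had 24.4, 35.4, 21.3 and 26.5. In Mbp, the highest tile, also intronic (chr18:82549001-82550000), had 27.7, 42.4, 29.2 and 22.9, and so was highest in uninjured F. Control levels were 97.3 (uninjured F) and 58.9 (1 d.p.i. M) at Gse1, 59.5 (1 d.p.i. M) at Nfasc and 109 (uninjured F) at Mbp, and 0 in the other controls. By chromosome, members were 0.643% of distal tiles on chromosome 11 and 0.507% on chromosome 8, and fewest on chromosomes 3 (0.142%) and 13 (0.161%).

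Members were richer in G and C than the distal genome. Their median GC content was 52.3%, against 41.4% in the 2121567 distal tiles with at least 900 known bases and 56.7% in the high tiles near starts. The ratio of observed to expected CpG was 0.210, between 0.157 in distal tiles and 0.583 near starts, and 3.09% of members exceeded 0.6, against 0.287% of distal tiles and 48.1% of the high tiles near starts. Members thus stood between distal tiles and high tiles near starts in CpG content. Repeats covered a median of 11.6% of a member and 25.7% of a distal tile. Introns held 54.0% of members, exons 19.4% and intergenic sequence 26.6%, against 37.3%, 8.40% and 54.3% of distal tiles. The median distance to a coding start was 15807 bp in members and 68155 bp in distal tiles, and 7.44% of members lay over 100 kb away. RefSeq places a transcript start within 2 kb of 647 members (8.55%) where the annotation used for the rule has none, against 2.33% of distal tiles.

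Motifs were searched on both strands within 100 bp of each member's summit, in windows 1 kb to either side and at the centres of distal tiles. The summit windows held a median of 28.8% of a member's SOX9 coverage. The SOX word (ACAATG or ACAAAG) was in 25.3% of summits (1912 members), 22.1% of flanks and 28.8% of distal centres. Because the word is AT-rich and members are GC-rich, distal centres were also weighted to the members' GC classes, which gave 20.7%. The classes were those of the whole tile, and the base composition of the summit windows was not matched. The ratio of summits to distal centres thus turned from 0.878 to 1.22 with the GC class of the tile. Among the 1797 members with 45% to 50% GC the word was in 33.7% of summits, 25.3% of flanks and 24.8% of distal centres. Among the 316 with 60% to 65% GC it was in 8.23% of summits and 20.7% of flanks. The word was more frequent at the summits than beside them in the AT-richer classes and less frequent in the GC-richest. An inverted pair of words 3 to 5 bases apart occurred at 5 summits (0.0660%, against 0.0133% of distal centres).

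The AP-1 word (TGAGTCA or TGACTCA) was in 5.82% of summits (441 members), 3.44% of flanks and 3.16% of distal centres. Weighting by the GC class of the tile gave 3.31% and so moved it little. It stood with a SOX word at 113 of these 441 summits, a share close to the 25.3% of all summits that held a SOX word. The E-box CAGCTG was in 19.3% of summits, 12.3% of flanks and 13.3% of weighted distal centres. The CTCF core CCANNAGNNGGC was in 2.96%, 2.02% and 1.54%. The X-box of RFX factors was in 0.660%, 0.291% and 0.394%, and the CRE word TGACGTCA in 0.396%, 0.152% and 0.170%. All of these were more frequent at the summits than in either comparison. The GC box GGGCGG was in 10.0% of summits and 5.20% of flanks. Its ratio to distal centres was 6.27 unweighted and 1.43 weighted, so much of it went with the GC content of the tile. Near transcript starts, 45% of the summits of high tiles held the GC box. The ETS word CCGGAAG was in 1.47% of summits and 1.01% of flanks, with a ratio of 2.87 to distal centres that turned to 0.636 after weighting. The STAT word TTCNNNGAA was in 3.65% of summits and 4.85% of flanks, the TEAD word GGAATG in 9.67% and 10.4%, and the NFI palindrome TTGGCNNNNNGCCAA at 2 summits. Of the members, 3281 (43.3%) held none of the 12 motifs at the summit. A match is a match of letters and says nothing of what was bound.

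The highest members were also taken among tiles whose 31-mers were mostly unique. At least 95% of the 31-mers of such a tile occurred at a single place on chromosomes 1 to 19, X and Y. This held for 5431 members (71.7%), against 55.7% of distal tiles sampled 1 in 500, and the selection was made after the values were seen. No list of problem regions of the genome was used to remove tiles. Unplaced sequence was not searched, and a word that occurs once on these chromosomes can have more copies in the animal. The highest was an intergenic tile near Axin2 (chr11:109011001-109012000), with SOX9 levels of 122 (uninjured M), 136 (uninjured F), 301 (1 d.p.i. M) and 323 (1 d.p.i. F). Its controls stood at 473, 933, 3886 and 199, above the SOX9 level in 3 of the 4 samples. The next, near the end of chromosome 19 (chr19:61266001-61267000), had 91.4, 117, 148 and 89.1, with controls at 248, 74.6, 183 and 352. In an intron of Arhgap23 (chr11:97419001-97420000) the levels were 57.5, 104, 124 and 68.5, with controls at 16, 78.1, 0 and 0. In an intron of Gna12 (chr5:140768001-140769000) they were 59.4, 97.2, 88.7 and 54.5, with controls at 56.8, 44.8, 109 and 182. Near Wnt7b (chr15:85634001-85635000) they were 50.2, 130, 67.3 and 62.3, with controls at 229, 126, 51.3 and 284. Control coverage was present at each of these 5 tiles. Tiles in Wscd1, near Arhgef10, near Fos and near Tex44 completed the 10 highest, with lowest levels of 48.4, 46.7, 46.7 and 43.1, besides the Qk tile. The Axin2 summit is shown because it was the highest of these, with its SOX word in capitals.
Axin2 side (chr11:109011741-109011940): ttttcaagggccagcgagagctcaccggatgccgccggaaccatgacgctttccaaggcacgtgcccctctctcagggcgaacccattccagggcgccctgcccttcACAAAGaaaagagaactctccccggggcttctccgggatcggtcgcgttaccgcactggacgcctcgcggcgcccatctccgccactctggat

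Among all members, 2 of the 5 highest were mostly repeats (90.9% and 95.1%), and unique 31-mers made up 3.2% to 64.6% of the 5 tiles. The highest, chr14:124801001-124802000 near the end of chromosome 14, had SOX9 levels of 493 (uninjured M), 298 (uninjured F), 349 (1 d.p.i. M) and 419 (1 d.p.i. F), and control levels of 85.2, 380, 251 and 107. The next, an intergenic tile at chr3:5860001-5861000, had 262, 281, 547 and 385, with controls at 662, 947, 2087 and 1147, above SOX9 in all 4 samples. A tile in an intron of Gm26870 at the start of chromosome 9 (chr9:3007001-3008000), 95.1% repeats, had 422, 188, 297 and 322, with controls at 123, 317, 323 and 0. A tile near the end of chromosome 12 (chr12:120028001-120029000) had 313, 173, 212 and 273, with controls at 95, 82.0, 87.2 and 218. It held 306 31-mers of the telomere repeat TTAGGG. Searched after this was seen, 31 bases of that repeat in a row were found in 210 distal tiles, of which 33 (15.7%) were members. Mean levels of these 33 were 84.6, 46.5, 56.4 and 69.4 in the SOX9 libraries and 40.1, 49.7, 30.8 and 22.4 in the controls, with a few tiles far above the rest. The lowest level over the SOX9 libraries had a median of 16.1 and reached 298 among them. Among members with at most 50% repeats, a tile within introns of Cmss1 and Filip1l (chr16:57391001-57392000) had 184, 169, 333 and 300, with controls at 571, 851, 1575 and 951. There, as at the chromosome 3 tile, both 1 d.p.i. libraries were above both uninjured ones, in the SOX9 libraries and in the controls. The annotations used here name no gene at the chromosome 3 tile, whose summit is shown for reference.
Chromosome 3 tile (chr3:5860530-5860729): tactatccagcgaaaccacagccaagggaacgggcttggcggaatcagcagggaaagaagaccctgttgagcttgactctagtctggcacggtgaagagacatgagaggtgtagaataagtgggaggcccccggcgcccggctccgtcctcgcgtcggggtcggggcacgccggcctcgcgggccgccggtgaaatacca

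Of the 10 highest members with at most 50% repeats, 6 lay in a stretch of chromosome 6 that holds copies of the 4.5S RNA gene, a small RNA transcribed by RNA polymerase III. RefSeq annotates this 174-bp gene at chr6:47654921-47655094. In chr6:47650001-47779000, between Ezh2 and Pdia4, 77 of 129 tiles were members, and 21 of them held a 31-mer of the gene. A median of 0% of the 31-mers of these 77 members occurred at a single place, and the median 31-mer occurred 17 times, so the coverage of any copy cannot be told apart from that of the others. Their median lowest level was 46.5. Mean levels were 72.0 (uninjured M), 78.9 (uninjured F), 80.7 (1 d.p.i. M) and 67.8 (1 d.p.i. F), close to each other, against 37.1, 23.4, 22.7 and 35.8 in the controls. The highest tile, chr6:47744001-47745000, had 217, 242, 251 and 205, with controls at 0, 0, 36.4 and 75.2. Its 200-bp summit sequence was shared base for base by 3 of the 6 summits and is shown for that reason. The annotated gene overlaps the summit near Ezh2 (chr6:47655068-47655267) at one end, and the other summits lay at positions without an annotated copy.
Summit in the 4.5S RNA stretch (chr6:47744205-47744404): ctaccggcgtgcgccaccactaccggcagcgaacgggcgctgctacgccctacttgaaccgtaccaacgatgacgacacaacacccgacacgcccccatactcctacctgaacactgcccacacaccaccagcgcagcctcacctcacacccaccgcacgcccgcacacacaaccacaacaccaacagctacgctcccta

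Members formed 5614 runs of adjacent tiles, and 4431 members (58.5%) had no adjacent member. The runs described here all lay in repeated sequence. Runs of 37 (chr6:47737001-47774000) and 36 (chr6:47651001-47687000) lay in the 4.5S RNA stretch. The fifth place was shared by 2 runs of 11, of which the first by position is described. Runs of 21 (chr6:114579001-114600000) and 11 (chr6:114611001-114622000) were nearest to Atg7, with 74.5% and 74.2% repeats. Of all members, 80 were nearest to Atg7 and 48 to the neighbouring Hrh1. Mean levels were 18.5, 11.5, 16.8 and 15.0 in the first and 17.9, 9.78, 16.2 and 14.1 in the other, lowest in uninjured F in both. A run of 12 lay within Ttc34 (chr4:154841001-154853000) with 99.5% repeats. Runs of 3 or more numbered 366. In members with under 50% unique 31-mers, 773 (10.2%), lay 0.945%, 0.769%, 0.878% and 0.818% of the SOX9 coverage, and in those with at least 95% unique 31-mers 2.2%, 2.87%, 2.89% and 2.39%.

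Several kinds of annotated element were looked up after the first results were seen. Genes of tRNAs, also transcribed by RNA polymerase III, lay in 27 members (0.357%), against 0.0125% of distal tiles, and 38 of the 276 distal tRNA genes (13.8%) were in a member. A tile with 2 cysteine tRNA genes (chr11:97988001-97989000) had levels of 21.3 (uninjured M), 17.7 (uninjured F), 21.1 (1 d.p.i. M) and 19.5 (1 d.p.i. F), with control coverage in a single library, at 42.8. Within chr11:69037001-69064000, the lowest levels of members with tRNA genes ran from 6.14 to 12.6. The conditions overlapped at the cysteine tRNA genes. Among 582 VISTA elements, mouse sequences tested with a reporter in embryos, 61 (10.5%) held a member, and 5.77% of their distal tiles were members, against 0.346% of all distal tiles. The share of elements with a member was 11.6% for those active in the neural tube (11 of 95), 15.8% for hindbrain, 15.0% for midbrain, 13.1% for forebrain, 26.9% for dorsal root ganglion (7 of 26), 8.59% for limb and 10.1% for heart. It was 7.72% for the 311 elements with no activity in the neural tube or brain. Classes overlap, as an element can be active in several tissues. VISTA elements had a median GC content of 46.8%, against 41.4% in distal tiles, and these shares were not weighted by GC class. Elements differ in length, and no share was counted for other stretches of like length. The neural tube element mm1606 held 5 members, and its highest tile (chr12:111694001-111695000) had 41.2, 50.5, 80.7 and 42.2, with controls at 77.0, 0, 136 and 314. Element mm1488 near Qk held 2, the higher of which (chr17:10335001-10336000) had 13.1, 26.0, 37.7 and 21.8, with controls at 0, 100.2, 0 and 130.2.

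The study cloned regulatory elements for reporter tests, and of the 22 mouse elements on these chromosomes 0 overlapped a member, where members were 0.346% of all distal tiles. IREN22 and IREN17 lay in no distal tile and could not overlap one. At that share few or no members would fall among so few elements. The paper chose its IRENs as predicted to be accessible only in reactive astrocytes, whereas the rule also asked for a high level in the uninjured libraries. The count of 0 therefore says nothing of SOX9 at these elements after injury. Of the elements, 2 touched a tile at a level of 3 or more in all 4 SOX9 libraries. The higher, element IREN23 (chr1:134723001-134724000), had 6.49 (uninjured M), 5.64 (uninjured F), 6.07 (1 d.p.i. M) and 3.65 (1 d.p.i. F), and missed the rule in 1 d.p.i. F. Among the elements named, control coverage was found at IREN23 (9.23), IREN5 (33.5), both in uninjured F, and IREN22. The tile of IREN21 had 6.27, 3.32, 8.58 and 5.07. The tile of IREN5 had 2.67, 3.29, 12.5 and 9.94 and that of IREN1, beside Slc39a14, had 2.32, 3.43, 5.55 and 5.56, so both were below the threshold in the uninjured libraries and above it at 1 d.p.i.

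Between the conditions, no member passed the test of the 1 d.p.i. libraries against the uninjured ones. In the limma fit over 726323 tiles, 0 members were higher and 0 lower at a Benjamini-Hochberg adjusted p-value under 0.05, against 0.00151% and 0.000138% of all tested tiles. At an unadjusted p-value under 0.05 in the same limma fit, 26 members were higher (0.343%) and 14 lower (0.185%), against 1.59% and 1.79% of tested tiles. These counts turned on single libraries. They were 32 higher and 152 lower without uninjured M, 135 and 28 without uninjured F, 2 and 3 without 1 d.p.i. M, and 8 and 0 without 1 d.p.i. F. Scaled by the mean tile they were 82 and 31, so their balance says nothing firm of a direction. The rule asked for a high level in all libraries and so limited how far a member could differ, and limma took the spread of each tile from the trend over all tiles, with a median SE of 0.68 on the log2 scale at the members. Neither count shows that SOX9 did not change at the members. Both 1 d.p.i. libraries were above both uninjured ones in 990 members (13.1%), against 15.4% of tested tiles, and below in 1161 (15.3%), against 16.8%. The median log2 change was -0.01 over members and -0.04 over all tested tiles.

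The largest difference was in an intron of Slc39a14, which encodes a zinc and iron transporter. The tile chr14:70336001-70337000 had levels of 6.21 (uninjured M), 9.66 (uninjured F), 51.3 (1 d.p.i. M) and 44.3 (1 d.p.i. F), and the controls stood at 0, 21.9, 0 and 0. Both 1 d.p.i. libraries were far above both uninjured ones. The log2 difference was 2.5 with an SE of 0.72, and in limma its p of 0.000462 gave an adjusted p of 0.996, so it did not pass. An intergenic tile near Ampd3 (chr7:110715001-110716000) had 5.11, 6.03, 22.8 and 23.7, with no control coverage (log2 difference 1.93, SE 0.67, limma p 0.00421, adjusted p 0.996). An intergenic tile near Cebpb, the gene of a transcription factor of the acute response (chr2:167765001-167766000), had 5.70, 10.1, 38.9 and 26.7, with control coverage in uninjured M alone (log2 difference 1.97, SE 0.69, limma p 0.00446, adjusted p 0.996). In each of these 3 tiles the 2 conditions did not overlap, and uninjured M was close to the threshold. The Ampd3 and Cebpb summits held an AP-1 word, and the Slc39a14 summit held an E-box, a STAT and an ETS word. The Slc39a14 and Cebpb summits are shown with SOX and AP-1 words in capitals.
Slc39a14 (chr14:70336378-70336577): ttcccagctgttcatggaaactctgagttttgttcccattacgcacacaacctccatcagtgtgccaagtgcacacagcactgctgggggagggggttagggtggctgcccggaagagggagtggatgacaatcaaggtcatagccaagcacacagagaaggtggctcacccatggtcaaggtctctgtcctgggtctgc
Cebpb (chr2:167765284-167765483): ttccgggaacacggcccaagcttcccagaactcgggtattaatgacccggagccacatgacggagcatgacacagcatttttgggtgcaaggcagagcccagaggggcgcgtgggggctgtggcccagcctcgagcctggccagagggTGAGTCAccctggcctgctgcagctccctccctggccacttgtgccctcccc

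In the other direction, a tile in an intron of Nudt21 (chr8:94020001-94021000) had 21.2 (uninjured M), 18.7 (uninjured F), 6.15 (1 d.p.i. M) and 5.11 (1 d.p.i. F). Its log2 difference was -1.78 with an SE of 0.67, and its limma p of 0.00821 gave an adjusted p of 0.996. A tile in an intron of Ttc28 (chr5:110964001-110965000), all repeats, had 48.7, 15.8, 8.16 and 9.0, and an intergenic tile near Rc3h1 (chr1:160856001-160857000) had 23.1, 34.4, 10.3 and 7.54. Both conditions stood apart in these tiles too, and none passed. Control coverage was 9.49 in uninjured F at Ttc28, 271 in uninjured M at Rc3h1, and 0 elsewhere in these 3 tiles. The first of them was 43.9% repeats with 30.2% unique 31-mers.

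Counts by gene list are to be read beside those over all members, of which 13.1% were above and 15.3% below, and over tested tiles, with 15.4% and 16.8%. The 157 oligodendrocyte members had a median log2 change of -0.11, with 10 above and 22 below in both 1 d.p.i. libraries, and 1 lower and 0 higher at an unadjusted limma p-value under 0.05. The 54 astrocyte members had a median of 0.07, with 9 above and 4 below, and 0 past the unadjusted p-value. The 22 members of the AP-1 and injury list had 0.12, with 5 above, 1 below and 2 higher at the unadjusted p-value, the Slc39a14 and Cebpb tiles. On this list, the highest tile near Egr1 (chr18:34887001-34888000) had levels of 13.4 (uninjured M), 13.6 (uninjured F), 15.2 (1 d.p.i. M) and 13.0 (1 d.p.i. F), so its conditions overlapped, with a control level of 194 in 1 d.p.i. F alone. The 8 ependymal members had 0.13 and the 25 neuronal members -0.24. After Benjamini-Hochberg adjustment in limma, 0 members of any list passed in either direction. The changes of the male and female samples had opposite signs. The median was 0.40 in M and -0.62 in F for oligodendrocyte members, and 0.67 in M and -0.37 in F for astrocyte members.

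The share of coverage in members was 4.12% ± 0.403 in the uninjured libraries and 4.28% ± 0.487 at 1 d.p.i. (SD, n = 2 each). The difference of 0.159 percentage points was smaller than the spread of either pair (exact two-sided permutation test, p = 0.667), and 2 against 2 libraries cannot give a p below 0.33. The levels of the same libraries chose the members, so the test carries no weight and the shares are a description. In the controls the shares were 4.12% ± 0.141 and 4.40% ± 0.473. Fragments in members had mean lengths of 266, 233, 262 and 269 bp, close to the 256, 223, 262 and 264 bp over all tiles. Uninjured F, the deepest library, had the shortest fragments in both.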

How the data were processed

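SOX9 CUT&Tag was measured in 4 libraries of mouse spinal cord, each with a secondary-only control, and the deposited signal of all 8 libraries was the depth of coverage per stretch of the genome, unscaled. The authors mapped read pairs to mm10 with Bowtie2 2.5.4 and removed duplicates with Picard 3.4.0. Their SEACR 1.3 peaks were not used here, and the step that wrote it is not stated. Here coverage was summed over 1-kb tiles of chromosomes 1 to 19 and divided by the library's mean tile. Each rise of the coverage counted as a fragment. Members and gene lists were chosen with earlier results of these data known.

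Transcript starts came from GENCODE M21, and sequence, tRNA genes, the 4.5S RNA gene and VISTA elements from RefSeq on GRCm38.p6. Repeats are soft-masked bases. The 31-mer counts of distal tiles rest on 1 tile in 500. Levels were scaled over 10-kb bins by trimmed means of log ratios. They were compared between 2 uninjured and 2 1 d.p.i. SOX9 libraries with limma 3.58.1 (R 4.3.3), on log2 of the level plus 0.5 with a mean-variance trend, over tiles with a mean level of 1 or more. Percentages of coverage were compared by an exact permutation test. Python 3.11.15, numpy 2.4.6, scipy 1.17.1, pandas 2.3.3 and numba 0.67.0 were used.

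Named tiles were the 5 with the highest minimum over the SOX9 libraries, the 10 highest with at most 50% repeats, the 3 at either side of the threshold, the 5 longest runs, the 3 with the smallest p in each direction, and up to 4 per gene list. Chosen after values were seen were the highest tile of single genes and of sequence with mostly unique 31-mers, the genes with the most members, the matching of fragment ends, the split of control fragments by shared ends, the RefSeq starts, the tRNA, 4.5S RNA, telomere and VISTA searches, and the summits of Cldn11, Olig1, Sox10, Tcf7l2, Rfx2, Fos, Slc39a14 and Cebpb. Tiles of chromosomes X and Y were left out. Alternatives covered thresholds, distances, tile grid, repeats, scaling, pseudocounts, filters, thinning and left-out libraries.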

Additional observations from a re-analysis of the deposited data

Results flagged for a closer look

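The median change at 1 d.p.i. had opposite signs in the male and the female samples. Taken as 1 d.p.i. over uninjured, members had a median log2 change of 0.35 between the male libraries, while between the female ones it was -0.39. All 726323 tested tiles had medians of 0.08 and -0.14, and 38.9% of members, against 47.4% of tested tiles, changed with the same sign in both sexes. Among the male libraries the share of SOX9 coverage in members changed by 0.789 percentage points, and among the female ones by -0.470. Each value compares 1 library with 1 other, and uninjured M was the shallowest and uninjured F the deepest SOX9 library. Whether the sexes differed was not tested, nor was the part of depth in it.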

How the results depend on the processing

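Of 122 alternatives, 97 stayed within the spread or factor used, 21 moved the value and 4 reversed it. The median log2 change of members, -0.01, stayed within the spread but was positive with all 8 libraries in the fit (0.08), scaled by the mean tile (0.02) or over the tested tiles (0.02), and thinned to the smallest SOX9 library (0.02). The number of members was 23762 at 3 times the mean tile and 1531 at 10 times, and leaving out each SOX9 library gave 8961 to 11819. In limma, 0 members were higher and 0 lower under every one of the 14 alternatives of the fit, at smallest adjusted p-values of members from 0.180 to 1.00. With the sex letter as a replicate block the counts were 0 and 0, with 4 higher and 1 lower at an unadjusted p-value under 0.05. The letters mark sex in different animals and cross no animals. Where a condition was left with 1 library, that library was assumed to vary like the other group. Leaving out each library moved the median log2 change of members from -0.25 to 0.23 and the difference in percent of coverage from -0.185 to 0.504.

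With distal centres weighted by GC class, the ratio of the SOX word at summits to distal centres reversed from 0.878 to 1.22 and that of the ETS word from 2.87 to 0.636. The ratios moved to 1.68 for the X-box, 1.92 for CTCF, 2.33 for the CRE, 0.729 for STAT, 1.45 for the E-box and 1.43 for the GC box. With at most 50% repeats the SOX ratio was 0.918. Gene-list alternatives were chosen after seeing the data. Weighted by GC class, the oligodendrocyte ratio was 5.39 and the AP-1 and injury ratio 1.54, and with runs counted once the oligodendrocyte ratio was 6.16. Without the gene with the most members, the ratio was 1.58 for astrocyte, 6.89 for oligodendrocyte, 0.380 for ependymal and 0.493 for neuronal genes. With starts and ends joined in order, the shared control fragments were 29.1%, 25.9%, 27.2% and 27.7%. The weighting held the GC class of the whole tile and not the base composition of the summit window. Causes beyond the GC class of the tile were not tested. Depth limits the members to 3.70 fragments at the threshold in uninjured M.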
